A study of Mus musculus with 20 samples.

Results

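The Akr1c genes of the mouse encode aldo-keto reductases of subfamily 1C, and 8 of them stand side by side on chromosome 13: Akr1c14, Akr1c18, Akr1c13, Akr1c19, Akr1c12, Akr1c6, Akr1c20 and Akr1c21. They were taken by symbol from the 49568 genes of the count tables, and the family was chosen because Akr1c12 and Akr1c13 had lower counts in AhR-KO cells. The comparison of AhR-KO with WT therefore chose the family, and for these genes its values are given as a description with no test. RNA was sequenced from long-term haematopoietic stem cells (LT-HSC), which renew themselves and found every blood lineage, and from multipotent progenitors (MPP), their descendants with little capacity for renewal. Both were sorted from the bone marrow of untreated mice 8 to 12 weeks old. The series addressed which targets of the receptor bear on stem cell function and division. The 4 groups were AhR-KO LT-HSC, WT LT-HSC, AhR-KO MPP and WT MPP, with 5 libraries each. AhR-KO stands for mice lacking the aryl hydrocarbon receptor, a transcription factor activated by ligands that pairs with ARNT and binds DNA at the letters GCGTG. The WT animals were C57BL/6, and that strain is the label of the AhR-KO libraries too. The sources used here name neither the allele, nor the markers of the sort, nor whether a library came from 1 animal or from several pooled, so p-values measure only the spread between these libraries.

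Aldo-keto reductases are soluble enzymes that use NADPH or NADH to reduce carbonyl groups to alcohols. The mouse 1C enzymes work on steroid hormones, prostaglandins, bile acid intermediates and reactive aldehydes, and they can raise or lower the activity of a hormone within a single cell. In the mouse, Akr1c18 is the 20-alpha-hydroxysteroid dehydrogenase that inactivates progesterone, Akr1c6 is a 17-beta-hydroxysteroid dehydrogenase of the liver, Akr1c14 is a 3-alpha-hydroxysteroid dehydrogenase and Akr1c21 acts on 3-alpha and 17-alpha positions of steroids. Akr1c12 is known in mouse myeloid cells as a gene that responds to interleukin-3, and Akr1c13 is its close relative with activity on xenobiotic carbonyls and hydroxysteroids.

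In GENCODE M21 (GRCm38) the family runs from Akr1c14 at chr13:4049011-4090688 to Akr1c21 at chr13:4574075-4586541, a stretch of 537.5 kb. The stretch holds 9 other annotated genes, of which 0 code for protein. Akr1c13 lies on the plus strand at chr13:4191150-4205596 and Akr1c12 on the minus strand at chr13:4268176-4279433, with Akr1c19 between them at chr13:4228700-4252843 on the plus strand. The other members are Akr1c18 at chr13:4132615-4150654, Akr1c6 at chr13:4434306-4457877 and Akr1c20 at chr13:4486849-4523345.

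The coding sequences of the 8 members are each 972 bases long. Those of Akr1c12 and Akr1c13 were identical at 935 bases and differed at 37, an identity of 96.2%, with no gap. Akr1c6 and Akr1c20 were the next closest pair at 92.3%, and the remaining pairs were between 71.1% and 79.1% identical. The 90 coding bases that differ most between Akr1c12 and Akr1c13 are shown because reads from such a stretch can be told apart by gene. They are bases 313 to 402 of the coding sequence, 5′ to 3′ on the coding strand, with the 11 differing positions in capitals.
Akr1c12: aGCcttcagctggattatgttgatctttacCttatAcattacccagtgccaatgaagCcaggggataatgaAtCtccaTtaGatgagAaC
Akr1c13: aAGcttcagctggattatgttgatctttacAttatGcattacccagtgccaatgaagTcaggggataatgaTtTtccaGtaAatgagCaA
Elsewhere the pair offers long runs that do not differ, the longest being 228 bases. Of all 50-base windows in the Akr1c12 and Akr1c13 transcripts, 28.6% occurred in both, and of the 100-base windows 11.5%. No source used here says how the counting treated reads that match both genes, so the division of counts between Akr1c12 and Akr1c13 is uncertain to that extent. Akr1c19 shared 4.18% of its 50-base windows with the pseudogene Marcksl1-ps4 and the gene Marcksl1, outside its coding sequence, and Akr1c14 shared 5.9% with the predicted gene Gm18857, also outside the coding sequence. Akr1c18, Akr1c6 and Akr1c20 shared at most 2.17% and Akr1c21 shared 0 windows.

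Promoter sequences from RefSeq (GRCm38.p6), 250 bases before to 50 bases after RefSeq's start of the gene, were matched to 7 of the 8 members. RefSeq's start lay 10.6 kb inside the GENCODE gene for Akr1c14 and 5.04 kb inside it for Akr1c19, so these windows are not at the GENCODE starts given above, and within 37 bases of the GENCODE start for the other 5. The promoters of Akr1c12 and Akr1c13, shown because these genes carry most of the family's RNA and were lower together, were identical in 284 of 304 aligned columns, or 93.4%. Akr1c12 is at chr13:4279350-4279649 on the minus strand and Akr1c13 at chr13:4190937-4191236 on the plus strand. Capitals mark the bases without an identical partner in the other sequence.
Akr1c12: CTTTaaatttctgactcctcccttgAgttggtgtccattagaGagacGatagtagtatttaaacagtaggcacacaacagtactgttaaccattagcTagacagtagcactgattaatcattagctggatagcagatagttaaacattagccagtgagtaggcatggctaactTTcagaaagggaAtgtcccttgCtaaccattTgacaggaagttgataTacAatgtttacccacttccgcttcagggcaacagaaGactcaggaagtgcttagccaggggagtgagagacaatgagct
Akr1c13: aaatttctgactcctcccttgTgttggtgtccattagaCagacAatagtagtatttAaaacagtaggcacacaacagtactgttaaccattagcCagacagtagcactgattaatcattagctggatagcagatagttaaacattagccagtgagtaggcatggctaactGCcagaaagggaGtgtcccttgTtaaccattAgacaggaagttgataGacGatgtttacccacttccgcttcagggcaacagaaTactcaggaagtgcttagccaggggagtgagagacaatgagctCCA
Both strands were searched for 6 motifs. The core letters bound by AHR with ARNT, GCGTG, occurred in the window of Akr1c14 and in no other member's, and 32.4% of the 32851 promoters in the table hold them. The GC box letters GGGCGG occurred in the window of Akr1c18 (35.7% of all promoters hold them) and the TATA box letters TATAAA in that of Akr1c6 (13.6%). The AP-1 letters TGANTCA, held by 7.81% of all promoters, occurred in none of the 7 windows. None of the motifs searched occurred in the windows of Akr1c12, Akr1c13 and Akr1c21. The Akr1c19 promoter, at chr13:4233490-4233789 on the plus strand, is shown because Akr1c19 had few counts in MPP beside those in LT-HSC. It held AGATAA, the letters bound by GATA factors, at 3 places (11.2% of all promoters hold them) and TGACNNNGC, those of the antioxidant response element, at 1 (12.4%). Capitals mark these matches, on either strand, and they do not overlap.
Akr1c19: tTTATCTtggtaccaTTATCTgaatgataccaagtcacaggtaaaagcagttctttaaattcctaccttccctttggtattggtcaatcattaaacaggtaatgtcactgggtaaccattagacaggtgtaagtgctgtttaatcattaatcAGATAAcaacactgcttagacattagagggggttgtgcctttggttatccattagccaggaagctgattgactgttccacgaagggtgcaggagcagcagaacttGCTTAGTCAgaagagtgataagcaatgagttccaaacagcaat

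Library totals ranged from 13712668 to 21622653 counts. The sum of 9 LT-HSC marker genes was 283 to 479 CPM (the usual scaling of counts to the library total, here with TMM factors) in the MPP libraries, and 725 to 1260 CPM in the LT-HSC libraries. The sum of 5 MPP markers was 2030 to 3090 CPM in MPP and 542 to 754 CPM in LT-HSC. Ahr itself was counted in every library, with 18.5 to 29.7 CPM in AhR-KO LT-HSC and 20.8 to 36.6 CPM in WT LT-HSC, and with 9.79 to 19.2 CPM in AhR-KO MPP and 5.79 to 14.2 CPM in WT MPP. Since the deleted part of the gene is not given, this gene count does not check the knockout. WT LT-HSC 1 stood apart from its group, with correlations of log2 CPM of 0.925 to 0.93 to the other WT LT-HSC libraries. AhR-KO LT-HSC 2 and 3 had neutrophil marker sums of 942 and 1410 CPM, against at most 90.8 CPM in the other LT-HSC libraries, and AhR-KO LT-HSC 3 also had a stroma and endothelium sum of 3790 CPM, against at most 151 CPM. Libraries 2 and 3 were also the highest in LT-HSC for granulocyte-monocyte progenitor (2290 and 1960 CPM), erythroid (1490 and 1690 CPM) and monocyte markers (813 and 917 CPM). WT LT-HSC 6 came next for granulocyte-monocyte progenitor (1310 CPM) and erythroid markers (985 CPM).

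Akr1c13 and Akr1c12 made up nearly all of the family's RNA in these cells. Over the 20 libraries Akr1c13 had 18856 counts, or 80.2% of the counts of all 8 members, and Akr1c12 had 4222, or 18.0%. Akr1c19 followed with 325 counts in 14 libraries and Akr1c14 with 84 counts in 8 libraries. Akr1c18 and Akr1c21 had 6 counts each, Akr1c6 had 1 and Akr1c20 had 0. A count of 0 in 1 library allows up to 3 counts, which is 0.136 to 0.216 CPM depending on the library; such limits cover counting error only. The dehydrogenases best known from ovary and liver, Akr1c18 and Akr1c6, therefore lay at or near the limit of detection. Scaled per kilobase of exons, Akr1c13 averaged 59.6 CPM per kb in WT LT-HSC, against 13.2 for Akr1c12, 0.336 for Akr1c19 and 0.169 for Akr1c14.

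**Figure D1:**
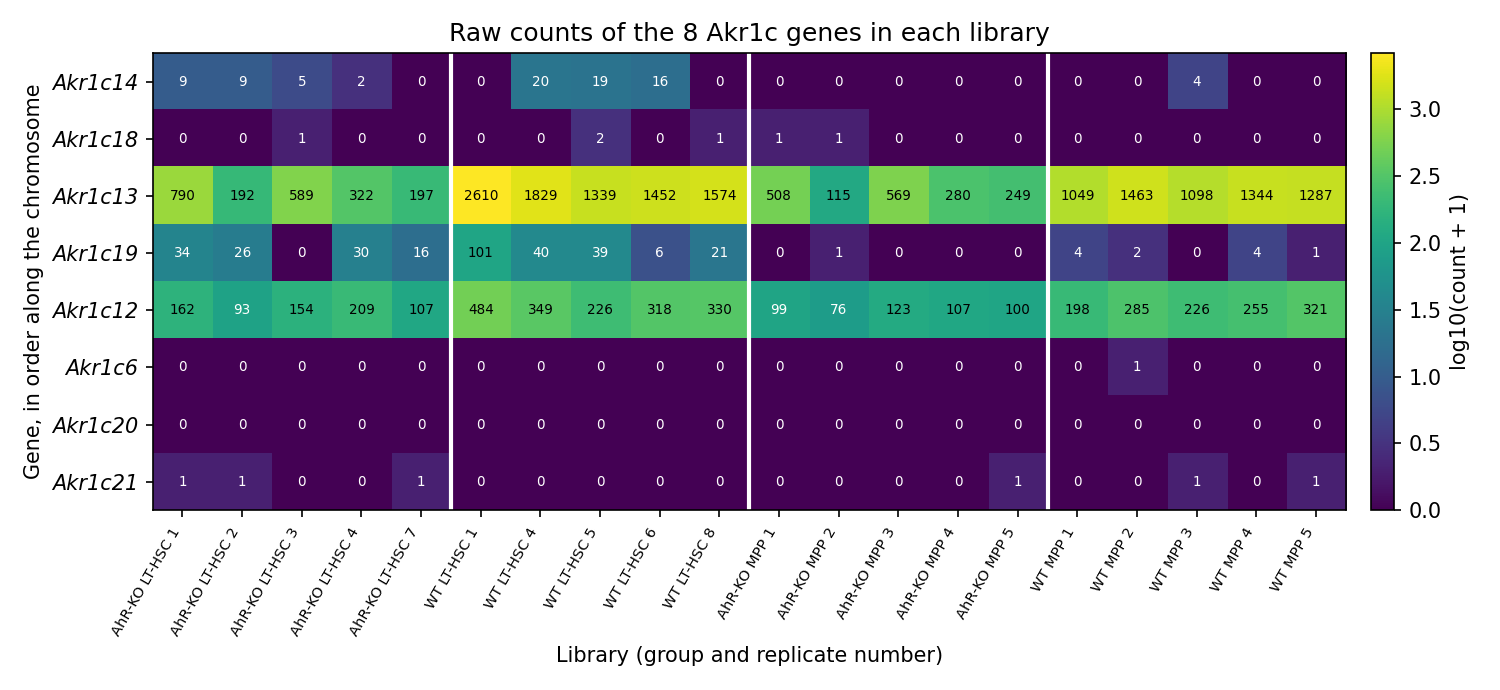
Raw counts of the 8 Akr1c genes (rows, in their order along the chromosome) in each of the 20 libraries (columns, 5 per group, white lines between groups); the colour is log10(count + 1) and the number in each cell is the count. Akr1c13 and Akr1c12 have counts in all 20 libraries, Akr1c19 and Akr1c14 mainly in LT-HSC, and the other 4 genes have at most 2 counts in any library.

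Akr1c13 was lower in AhR-KO than in WT cells of both populations, by about the same amount. In AhR-KO LT-HSC it had 40.1, 9.49, 30.8, 14.7 and 11.9 CPM (libraries 1, 2, 3, 4 and 7), against 124, 82.8, 68.1, 78.2 and 74.2 CPM in WT LT-HSC (libraries 1, 4, 5, 6 and 8). The highest AhR-KO library lay below the lowest WT library, and the WT library far above the others was WT LT-HSC 1. In AhR-KO MPP it had 35.6, 8.28, 29.0, 14.1 and 12.2 CPM (libraries 1 to 5), against 71.5, 72.8, 62.7, 69.6 and 70.9 CPM in WT MPP. Again the groups did not overlap, and the AhR-KO libraries were widely spread while the WT MPP libraries lay close together.

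The group means of Akr1c13 were 21.4 ± 13.4 CPM in AhR-KO LT-HSC and 85.5 ± 22.2 CPM in WT LT-HSC (SD, n = 5 each), a log2 fold change of -1.98 ± 0.39 (SE), or 3.95-fold lower. In MPP they were 19.8 ± 11.8 CPM in AhR-KO and 69.5 ± 3.97 CPM in WT (SD, n = 5 each), a log2 fold change of -1.81 ± 0.32 (SE), or 3.5-fold lower. Without WT LT-HSC 1 the LT-HSC value was -1.81, and without AhR-KO LT-HSC 2 and 3 it was -1.93, so that it was nearly as large without either set of libraries that stood apart. The coefficient of variation between libraries was 62.4% in AhR-KO LT-HSC and 26.0% in WT LT-HSC, and 59.5% in AhR-KO MPP and 5.72% in WT MPP.

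Akr1c12 was lower in AhR-KO by a smaller factor. It had 8.22, 4.6, 8.06, 9.55 and 6.47 CPM in AhR-KO LT-HSC, against 23.0, 15.8, 11.5, 17.1 and 15.6 CPM in WT LT-HSC, in the same order of libraries. It had 6.94, 5.47, 6.26, 5.40 and 4.90 CPM in AhR-KO MPP, against 13.5, 14.2, 12.9, 13.2 and 17.7 CPM in WT MPP. The groups did not overlap in either population. The means were 7.38 ± 1.90 CPM in AhR-KO LT-HSC and 16.6 ± 4.15 CPM in WT LT-HSC, and 5.80 ± 0.806 CPM in AhR-KO MPP and 14.3 ± 1.95 CPM in WT MPP (SD, n = 5 each). The log2 fold changes were -1.15 ± 0.23 (SE) in LT-HSC, or 2.23-fold lower, and -1.30 ± 0.17 (SE) in MPP, or 2.47-fold lower. With the Akr1c12 and Akr1c13 counts summed, the log2 fold change was -1.81 in LT-HSC and -1.71 in MPP.

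As background to these values, 0.00622% of the 16065 genes tested in LT-HSC and 0.0311% of the 16077 genes tested in MPP were called by edgeR's quasi-likelihood test at a Benjamini-Hochberg adjusted p under 0.05, in either direction. Groups that did not overlap, with AhR-KO lower, were seen for 1.41% of the genes in LT-HSC and 0.56% in MPP. Since Akr1c12 and Akr1c13 were chosen by this comparison, nothing is read from their place in it, and the values above carry no claim that either gene passed this test. In bulk samples of this kind, fewer cells with the transcript and less transcript per cell cannot be told apart.

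**Figure D2:**
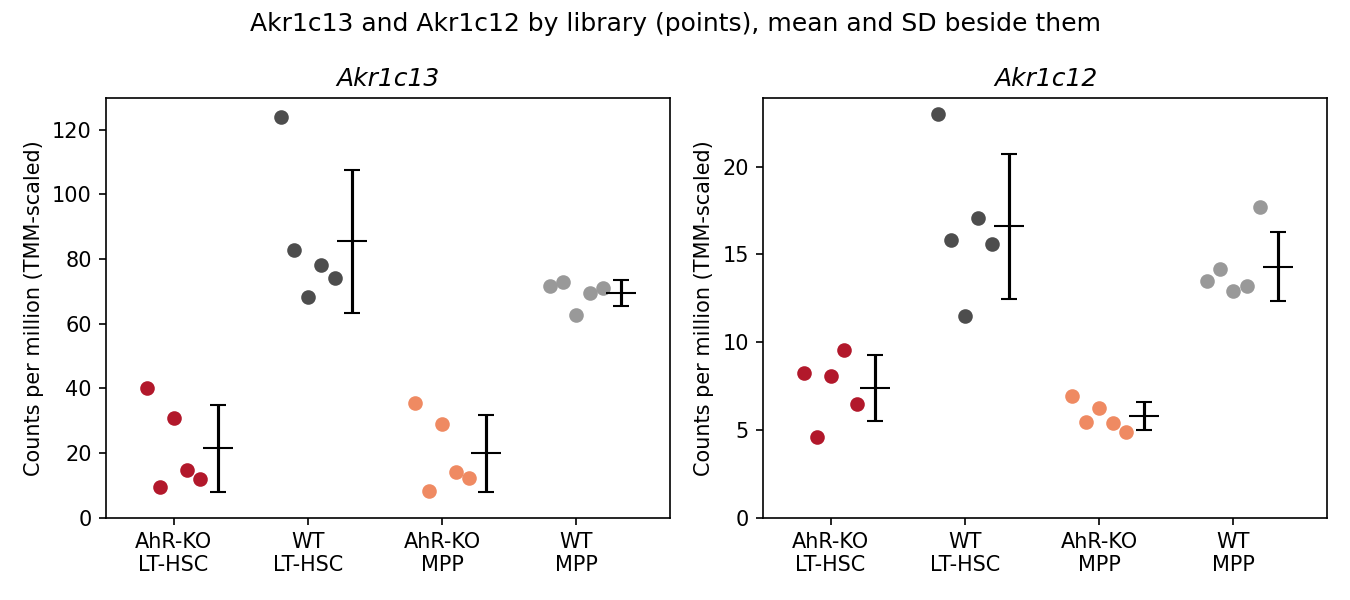
CPM (TMM-scaled, vertical axis from 0) of Akr1c13 and Akr1c12 in each library (points), by group, with the mean and SD of the 5 libraries as a bar beside them. In both populations every AhR-KO library lies below every WT library, at most 40.1 against at least 62.7 CPM for Akr1c13 and at most 9.55 against at least 11.5 CPM for Akr1c12.

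Of the 8 members, 3 passed the filter on low counts in LT-HSC and 2 in MPP, the third in LT-HSC being Akr1c19. It had 1.72, 1.29, 0, 1.37 and 0.968 CPM in AhR-KO LT-HSC, against 4.80, 1.81, 1.98, 0.323 and 0.990 CPM in WT LT-HSC, and the groups overlapped. The log2 fold change was -0.87 ± 0.81 (SE), and -0.24 without WT LT-HSC 1, whose 101 counts were the most of any library. Akr1c14 had 25 counts over the AhR-KO LT-HSC libraries and 55 over the WT LT-HSC libraries, but 2 of the 5 WT libraries had 0 and the groups overlapped. Akr1c18, Akr1c6, Akr1c20 and Akr1c21 had too few counts in any group for a comparison.

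The size of the AhR-KO effect was set against population in 1 fit of all 20 libraries. The effect in MPP minus that in LT-HSC was 0.19 ± 0.53 (SE, log2) for Akr1c13, with a 95% interval from -0.85 to 1.23, and -0.13 ± 0.27 for Akr1c12, with an interval from -0.67 to 0.40. For Akr1c19 it was -1.95 ± 1.47 (SE), given with no p, since this gene had 1 count in AhR-KO MPP and 11 in WT MPP. Over all 17416 genes tested, 0 were called for such a difference by edgeR and 1125 (6.46%) had an unadjusted p under 0.05, while DESeq2 called 45 and limma voom 17.

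The comparison of MPP with LT-HSC was not used to choose the family, and was tested for the abundant pair Akr1c13 and Akr1c12, whose differences did not pass. Of all genes tested, 22.3% were called between WT MPP and WT LT-HSC and 23.2% between AhR-KO MPP and AhR-KO LT-HSC. For Akr1c13 the log2 fold change of MPP over LT-HSC was -0.30 ± 0.37 (SE) in WT (edgeR, adjusted p = 0.633), with a 95% interval from 0.491-fold to 1.35-fold. In AhR-KO it was -0.11 ± 0.38 (edgeR, adjusted p = 0.88), from 0.554-fold to 1.55-fold, and its sign turned without any 1 of AhR-KO LT-HSC 1 (0.20), AhR-KO LT-HSC 3 (0.02) and AhR-KO MPP 2 (0.05). For Akr1c12 it was -0.22 ± 0.19 in WT (edgeR, adjusted p = 0.479), with a log2 interval from -0.59 to 0.16, and -0.35 ± 0.20 in AhR-KO (edgeR, adjusted p = 0.224), from -0.74 to 0.04. The groups overlapped in each of these comparisons, and the fit treated libraries of the same number as independent.

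The order of the mean Akr1c13 levels was thus WT LT-HSC, WT MPP, AhR-KO LT-HSC and AhR-KO MPP, from high to low. The libraries of neighbours in that order overlapped between WT LT-HSC and WT MPP and between AhR-KO LT-HSC and AhR-KO MPP, and did not overlap between WT MPP and AhR-KO LT-HSC. Akr1c12 had the same order and the same overlaps, with at least 12.9 CPM in WT MPP and at most 9.55 CPM in AhR-KO LT-HSC.

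Akr1c19, an oxidoreductase of broad substrate range, had fewer counts in MPP of both genotypes. It passed the filter on low counts only through its LT-HSC libraries, so it had to differ in order to be tested, and its values are given with no p. In WT MPP it had 0.273, 0.0995, 0, 0.207 and 0.0551 CPM, against 4.80, 1.81, 1.98, 0.323 and 0.990 CPM in WT LT-HSC. No WT MPP library reached the lowest WT LT-HSC library, a separation with MPP lower that was seen for 8.1% of all genes. In AhR-KO MPP it had 0.072 CPM in library 2 and 0 in the other 4, against 1.72, 1.29, 0, 1.37 and 0.968 CPM in AhR-KO LT-HSC, where library 3 also had 0. The fitted log2 fold change was -3.92 ± 0.92 (SE) in WT and -5.88 ± 1.2 in AhR-KO, and the AhR-KO value depends on the prior count, with 1 count in MPP. Summed over libraries these were 11 counts in WT MPP against 207 in WT LT-HSC, 16.5-fold lower on the CPM scale (95% counting interval 9.01 to 33.6), and 1 count in AhR-KO MPP against 106 in AhR-KO LT-HSC, a ratio of 95.2 (16.8 to 3820). Marcksl1, which shares short stretches with Akr1c19, had 122 to 144 CPM in AhR-KO MPP against 104 to 121 CPM in AhR-KO LT-HSC, and 105 to 128 CPM in WT MPP against 103 to 210 CPM in WT LT-HSC. The pseudogene Marcksl1-ps4, which shares the 100-base windows too, averaged 0.189 ± 0.128 CPM in AhR-KO MPP, against 0.260 ± 0.231 CPM in AhR-KO LT-HSC, and 0.162 ± 0.107 CPM in WT MPP, against 0.349 ± 0.151 CPM in WT LT-HSC (SD, n = 5 each), so its mean too was lower in MPP. The part of either in the Akr1c19 counts was not tested.

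Akr1c14, the 3-alpha-hydroxysteroid dehydrogenase, was left out of the fits by the filter on low counts. It had 0 counts in all 5 AhR-KO MPP libraries, against 9, 9, 5, 2 and 0 in AhR-KO LT-HSC. Pooled over libraries, the AhR-KO LT-HSC value was 7.52-fold above a floor of 3 counts over the AhR-KO MPP group. That ratio leaves out counting error in LT-HSC and the spread between libraries, so it is not a lower bound. In WT MPP Akr1c14 had 4 counts, all in library 3, against 0, 20, 19, 16 and 0 in WT LT-HSC. By an exact permutation test over libraries, two-sided, the difference in CPM had p = 0.0476 in AhR-KO and p = 0.167 in WT, or 0.0952 and 0.167 after Benjamini-Hochberg adjustment over these 2 tests, where 0.00794 is the smallest p that 5 against 5 libraries allow. Neither passed after adjustment. The shares of libraries with counts were 0 of 5 in AhR-KO MPP against 4 of 5 in AhR-KO LT-HSC, and 1 of 5 in WT MPP against 3 of 5 in WT LT-HSC.

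The division of counts between Akr1c13 and Akr1c12 was steady in WT cells and uneven in AhR-KO cells. Akr1c13 held 83.0%, 67.4%, 79.3%, 60.6% and 64.8% of the summed counts in AhR-KO LT-HSC, against 84.4%, 84.0%, 85.6%, 82.0% and 82.7% in WT LT-HSC. It held 83.7%, 60.2%, 82.2%, 72.4% and 71.3% in AhR-KO MPP, against 84.1%, 83.7%, 82.9%, 84.1% and 80.0% in WT MPP. The lowest AhR-KO share, 60.2% of 191 counts, had an exact (Clopper-Pearson) 95% interval of 52.9% to 67.2%, which covers counting error only, and the lowest WT share, 80.0% of 1608 counts, one of 78.0% to 82.0%. AhR-KO libraries 1 and 3 of both populations lay within or close to the WT range, and the other 6 AhR-KO libraries lay below it.

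The mean share was 71.0 ± 9.63% in AhR-KO LT-HSC and 83.7 ± 1.40% in WT LT-HSC, and 74.0 ± 9.51% in AhR-KO MPP and 83.0 ± 1.70% in WT MPP (SD, n = 5 each). Between populations the share differed by -0.751 percentage points in WT (MPP minus LT-HSC, exact permutation p = 0.5) and by 2.95 points in AhR-KO (exact permutation p = 0.635), with an adjusted p of 0.635 for both. AhR-KO libraries 1 and 3 were also those with the highest Akr1c13 levels in both populations. Since 28.6% of the 50-base windows are common to both transcripts, reads of the one gene counted for the other would move these shares, and the part of that in the result was not tested.

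**Figure D3:**
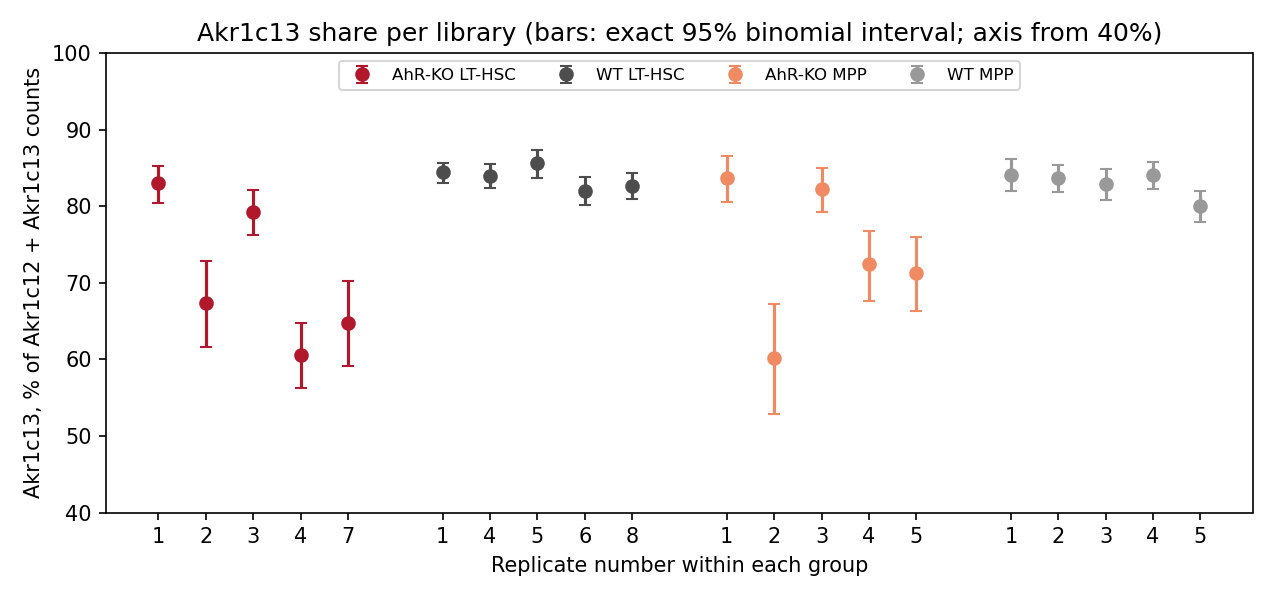
Share of Akr1c13 in the summed Akr1c12 and Akr1c13 counts (vertical axis, percent, from 40 to 100) in each library (horizontal axis, replicate number within its group), with exact 95% binomial intervals as bars. The 10 WT libraries lie between 80.0% and 85.6%, while the AhR-KO libraries spread from 60.2% to 83.7%.

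The Akr1c13 level of an AhR-KO library in one population resembled that of the library with the same number in the other. AhR-KO libraries 1, 2, 3 and 4 exist in both populations, and the ratio of Akr1c13 in MPP to that in LT-HSC was 0.889, 0.872, 0.94 and 0.96 in them, although the level itself ranged 4.3-fold over these MPP libraries and 4.23-fold over these LT-HSC libraries. The Akr1c12 ratios in the same libraries were 0.845, 1.19, 0.778 and 0.565. Of 11878 genes with at least 5 CPM on average, 120 (1.01%) ranged at least 3-fold over these 4 numbers in both populations, as ratios of CPM + 0.5. Akr1c13 was the gene among them whose 4 ratios differed by less than 1.2-fold (1.09-fold), and the next were Zfp36 at 1.31-fold and Fos at 1.47-fold. These limits, and the genes named by them, were chosen after the values were seen. The labels do not say whether a number marks the same animal in both populations. Over all genes, deviations from the group mean correlated at -0.00415 to 0.254 between same-numbered AhR-KO libraries, and 3 of 4 were closest to their own number. Same-numbered WT libraries correlated at -0.13 to 0.0768, and 1 of 3 was closest to its own number, so the numbers did not clearly pair the libraries. In WT, where numbers 1, 4 and 5 are shared, the Akr1c13 ratios were 0.576, 0.84 and 1.04, and the level ranged 1.03-fold over these MPP libraries and 1.82-fold over the LT-HSC libraries.

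**Figure D4:**
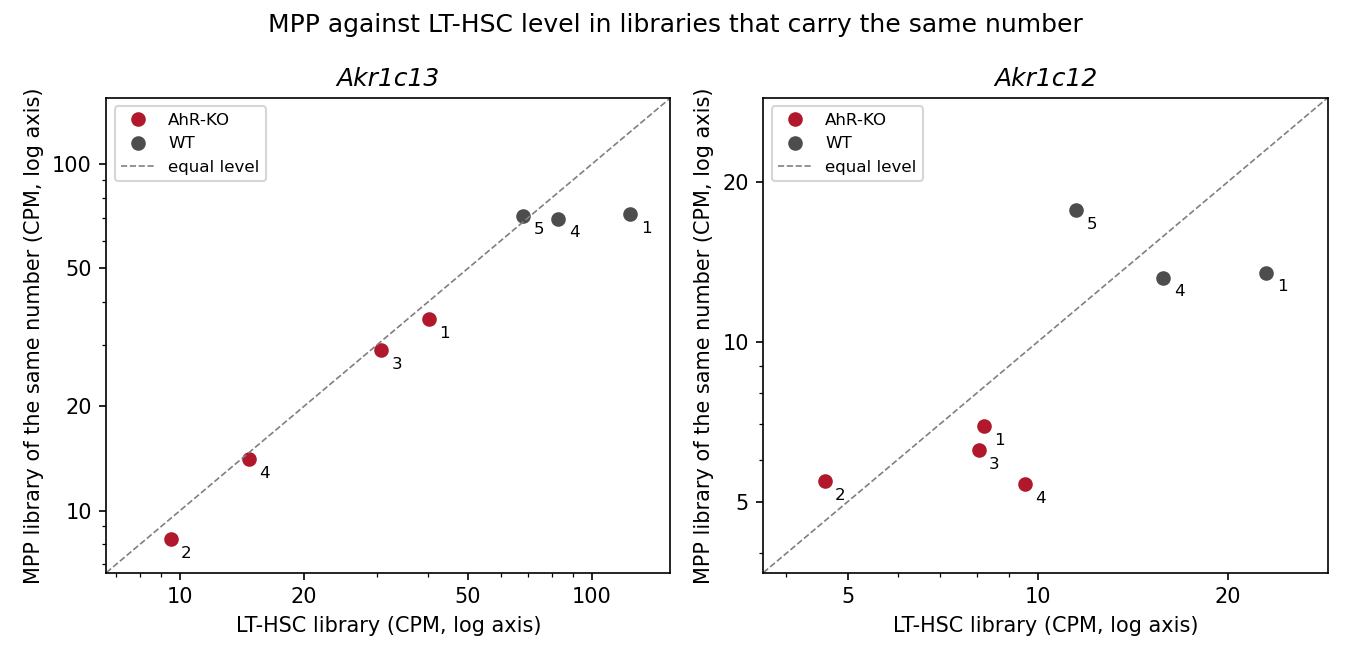
Level of Akr1c13 and Akr1c12 in an MPP library (vertical, CPM, log axis) against the LT-HSC library with the same number (horizontal, CPM, log axis), for AhR-KO (4 numbers) and WT (3 numbers); the dashed line marks equal levels. The 4 AhR-KO points of Akr1c13 lie just under the line, with ratios of 0.872 to 0.96, while those of Akr1c12 scatter around it.

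Markers of other cells varied among the AhR-KO libraries with little Akr1c13. In AhR-KO LT-HSC the lowest level, 9.49 CPM, was in library 2, with a neutrophil sum of 942 CPM, but library 3, with 1410 CPM, had 30.8 CPM of Akr1c13, and libraries 4 and 7, with 8.0 and 10.2 CPM of neutrophil markers, had 14.7 and 11.9 CPM. The 8 neutrophil markers summed to between 152 and 781 CPM over the AhR-KO MPP libraries and between 383 and 713 CPM over the WT MPP libraries. The 8 mast cell and basophil markers summed to between 5.69 and 236 CPM over the AhR-KO LT-HSC libraries and between 4.57 and 183 CPM over the WT LT-HSC libraries. In MPP they summed to between 139 and 448 CPM over AhR-KO and between 351 and 473 CPM over WT. The 5 megakaryocyte markers summed to 219, 211, 181, 216 and 346 CPM in AhR-KO MPP (libraries 1 to 5), against 418, 376, 381, 378 and 313 CPM in WT MPP, and the groups overlapped only through library 5 of each. In LT-HSC they summed to between 472 and 615 CPM over AhR-KO and between 430 and 631 CPM over WT. The part of these cells in the Akr1c values was not tested.

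Within groups, Akr1c13 and Akr1c12 were correlated from library to library. With each group's mean subtracted from log2(CPM + 0.5), Pearson's r was 0.618 and Spearman's rho 0.647 over the 20 libraries (permutation tests within groups, 100000 resamples, p = 0.00673 and 0.00826, adjusted p = 0.0202 and 0.0248 over the 3 pairs of members tested). These permutations treated libraries of the same number as independent, and the labels do not say whether they are. Without AhR-KO LT-HSC 1 and AhR-KO MPP 1, the libraries farthest from the median, r was 0.592. For Akr1c19, r was -0.0132 with Akr1c13 and 0.0758 with Akr1c12, and rho -0.077 and -0.00528 (permutation tests, adjusted p = 0.972 for both r and 0.986 for both rho). Its r with Akr1c13 was 0.673 over the 10 WT libraries and -0.245 over the 10 AhR-KO libraries, and with Akr1c12 0.257 and -0.122, given with no test. Akr1c19 had at most 4 counts in any MPP library, so its values there lie near the floor. The shared windows of Akr1c12 and Akr1c13 bear on their correlation too, to an extent that was not tested.

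By the pattern over all 20 libraries, with group differences kept, each of the pair was the gene most like the other among 10610 genes (r = 0.915). Next to Akr1c12 came Ap4s1 (0.807), an adaptor subunit of vesicle transport, Dtd2 (0.797), Ctla2a (0.766) and Ide (0.764), the insulin-degrading enzyme. Next to Akr1c13 came Ide (0.760), Ap4s1 (0.739), Cnrip1 (0.724) and Rell1 (0.721). All 6 of these genes had lower mean levels in AhR-KO than in WT in both populations, which the likeness to Akr1c12 and Akr1c13 selects for. Ide, for example, averaged 226 CPM in AhR-KO LT-HSC and 397 CPM in WT LT-HSC, and 217 CPM in AhR-KO MPP and 380 CPM in WT MPP. None of these genes lies near the family: Ide is on chromosome 19, Ap4s1 and Dtd2 on chromosome 12, and Ctla2a on chromosome 13 at 60934155 to 60936625.

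With group means subtracted, the genes most like Akr1c12 were Slc25a4 (0.795), Narfl (0.780), Tmem161a (0.765), Pebp1 (0.760) and Cep19 (0.759), and Akr1c13 came at rank 159. Those most like Akr1c13 were Ube2w (0.678), Coq2 (0.665), Tpgs2 (0.657), Slc30a9 (0.657) and Tmtc4 (0.652), and Akr1c12 came at rank 12. These correlations describe 20 libraries that share their depth and makeup, and carry no test.

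No protein-coding neighbour of the family was called between AhR-KO and WT. Within 1 Mb on either side there were 10, of which 5 were frequent enough to be tested. Of these, 0 of 5 passed in either population by edgeR, by DESeq2 or by limma voom, with 0 at an unadjusted p under 0.05 (edgeR). Over all genes, edgeR called 0.00622% in LT-HSC and 0.0311% in MPP, and 8.85% and 6.62% had an unadjusted p under 0.05. With so few genes called, 0 in a short list does not set it apart from all genes. The neighbours' median log2 fold change was 0.12 in LT-HSC, against 0.000791 for all genes, and -0.00333 in MPP, against 0.00484. The gene with the smallest p was Gdi2 in LT-HSC (0.15 ± 0.08, SE, edgeR, adjusted p = 0.585) and Net1 in MPP (-0.22 ± 0.10, edgeR, adjusted p = 0.754). Akr1e1, an aldo-keto reductase of another subfamily whose gene is the first past Akr1c21, averaged 65.1 ± 6.52 CPM in AhR-KO LT-HSC and 78.6 ± 33 CPM in WT LT-HSC, and 52.0 ± 7.16 CPM in AhR-KO MPP and 52.0 ± 6.97 CPM in WT MPP (SD, n = 5 each). Its WT LT-HSC mean was raised by library 1 with 137 CPM, the same library that was highest for Akr1c13, Akr1c12 and Akr1c19. Between WT MPP and WT LT-HSC, 1 of 5 neighbours was called higher in MPP and 2 lower, beside 22.3% of all genes called in either direction. Gdi2 rose (0.40 ± 0.08, adjusted p = 0.00128) and Asb13 and Akr1e1 fell (-0.39 ± 0.13, adjusted p = 0.0324, and -0.60 ± 0.19, adjusted p = 0.0269, all by edgeR). The Akr1e1 call was lost without WT LT-HSC 1 (-0.30, adjusted p = 0.0514), WT MPP 4 (-0.57, 0.0575) or WT MPP 5 (-0.57, 0.0583), and the Asb13 call without WT LT-HSC 5 (-0.39, 0.0536), WT LT-HSC 6 (-0.36, 0.0702) or WT MPP 3 (-0.34, 0.0875). Between AhR-KO MPP and AhR-KO LT-HSC, 1 of 5 neighbours was called, beside 23.2% of all genes. It was Net1, which fell (-0.66 ± 0.19, edgeR, adjusted p = 0.0148), a call lost without AhR-KO LT-HSC 2 and 3 (-0.64, adjusted p = 0.0558).

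**Figure D5:**
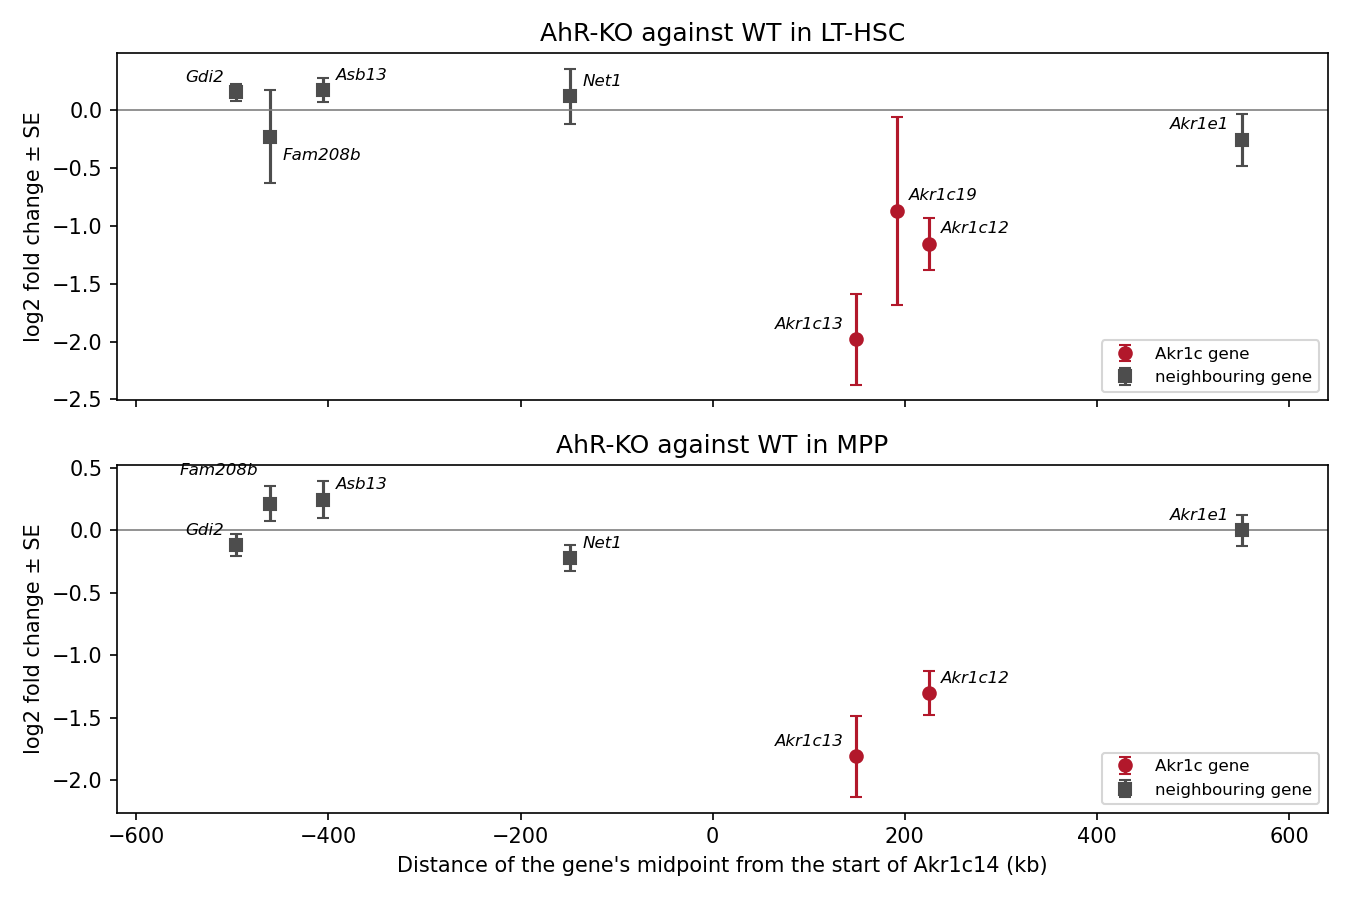
Log2 fold change of AhR-KO over WT with its SE (vertical axis) in LT-HSC and in MPP against the distance of each gene's midpoint from the start of Akr1c14 in kb (horizontal axis), for the tested Akr1c genes (circles) and the tested protein-coding neighbours within 1 Mb (squares). Akr1c13 and Akr1c12 lie between -1.98 and -1.15, while the neighbours lie within 0.26 of 0.

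No aldo-keto reductase outside the family was called by genotype. Of the 12 listed, 8 were tested in LT-HSC and 7 in MPP, and between AhR-KO and WT 0 were called by edgeR, DESeq2 or limma voom. Over all genes, edgeR called 0.00622% in LT-HSC and 0.0311% in MPP, so a count of 0 does not set the list apart. An unadjusted p under 0.05 (edgeR) was held by 1 in each population, beside 8.85% and 6.62% of all genes. The list's median log2 fold change was 0.06 in LT-HSC, against 0.000791 for all genes, and 0.03 in MPP, against 0.00484. The smallest p belonged to Akr7a5 in LT-HSC, an aldehyde reductase with 39.1 ± 7.12 CPM in AhR-KO and 30.8 ± 3.94 CPM in WT (SD, n = 5 each; edgeR, adjusted p = 0.524), and to Akr1b10 in MPP (0.31 ± 0.13, SE, edgeR, adjusted p = 0.705). Between populations in WT, 1 of 8 was called higher in MPP and 2 lower, beside 22.3% of all genes. Akr1a1, the widespread aldehyde reductase, rose (380 ± 39.0 CPM in WT MPP, 305 ± 13.3 CPM in WT LT-HSC), and Akr1e1 and the potassium channel subunit Kcnab1 fell (Kcnab1 0.714 ± 0.512 CPM in WT MPP and 3.89 ± 1.80 CPM in WT LT-HSC; SD, n = 5 each). In AhR-KO 0 of 8 were called by edgeR and by DESeq2 between the populations, beside 23.2% of all genes by edgeR, and 2 by limma voom (Akr1b10 and Akr1e1). Of the 8, 3 had an unadjusted p under 0.05 (edgeR), beside 34.2% of all genes. The smallest p was that of Akr1b10 (0.32 ± 0.12, adjusted p = 0.0612), which passed with limma voom (adjusted p = 0.0341) and without WT LT-HSC 1 (0.31, adjusted p = 0.038).

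Steroid and carbonyl oxidoreductases share substrates with the family. Of 29 listed, 14 were tested between AhR-KO and WT in LT-HSC and 15 in MPP. By edgeR, DESeq2 or limma voom 0 were called, beside 0.00622% and 0.0311% of all genes by edgeR. An unadjusted p under 0.05 (edgeR) was held by 1 in LT-HSC and 0 in MPP, beside 8.85% and 6.62% of all genes. The smallest p belonged to Hsd17b4 in LT-HSC (0.19 ± 0.08, SE, edgeR, adjusted p = 0.557) and to Hsd11b1 in MPP (-0.57 ± 0.29, edgeR, adjusted p = 0.769). The list's median was -0.09 in LT-HSC and -0.00487 in MPP. Between WT MPP and WT LT-HSC 1 of 16 rose and 3 fell, beside 22.3% of all genes called in either direction. Hsd11b1, which regenerates active glucocorticoid, averaged 15.7 ± 4.28 CPM in WT MPP and 1.18 ± 0.984 CPM in WT LT-HSC. Hsd17b10, a mitochondrial dehydrogenase, averaged 92.2 ± 11.9 CPM in WT MPP and 155 ± 38.6 CPM in WT LT-HSC, and the carbonyl reductase Cbr3 averaged 0.712 ± 0.429 CPM in WT MPP and 5.48 ± 1.79 CPM in WT LT-HSC (SD, n = 5 each). Cbr1, a related carbonyl reductase, fell too (-0.31 ± 0.11, edgeR, adjusted p = 0.0462), but its call was lost without any 1 of WT LT-HSC 1, 4 and 6 or WT MPP 1, 3, 4 and 5, at -0.25 to -0.34. In AhR-KO 1 of 16 rose in MPP and 2 fell, beside 23.2% of all genes called in either direction. Hsd17b1 rose (1.89 ± 0.50, edgeR, adjusted p = 0.00915). Hsd17b10 (-0.49 ± 0.14, edgeR, adjusted p = 0.0122) and Cbr3 (-1.45 ± 0.52, edgeR, adjusted p = 0.0483) fell. The Cbr3 call was lost when any 1 of 14 libraries was left out, at -1.53 to -1.23. Hsd17b1 was 1.22 ± 0.49 in WT (edgeR, adjusted p = 0.0841), where DESeq2 and limma voom called it. Hsd11b1 was 1.76 ± 0.87 in AhR-KO (edgeR, adjusted p = 0.161), where limma voom called it. DESeq2 called 5 of 16 in WT and 3 in AhR-KO, and limma voom 6 in each. The median of the list was -0.10 in WT and -0.18 in AhR-KO, against 0.0117 and 0.0112 for all genes.

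Of 24 genes of prostaglandin synthesis, breakdown and reception, 17 were tested between AhR-KO and WT in LT-HSC and 18 in MPP. By edgeR, DESeq2 or limma voom 0 were called in either, beside 0.00622% and 0.0311% of all genes by edgeR. An unadjusted p under 0.05 (edgeR) was held by 2 in LT-HSC and 1 in MPP, beside 8.85% and 6.62% of all genes. The smallest p belonged to Tbxas1, thromboxane synthase, in LT-HSC (-0.29 ± 0.10, SE, edgeR, adjusted p = 0.506) and to Ptgds, a prostaglandin D synthase, in MPP (0.99 ± 0.40, edgeR, adjusted p = 0.67). The list's median was 0.04 in LT-HSC and -0.02 in MPP. Between populations genes of this list were called in both directions. In WT 4 of 20 rose in MPP and 5 fell, and in AhR-KO 4 rose and 6 fell, beside 22.3% and 23.2% of all genes called in either direction. The genes that fell in both genotypes were Pla2g4a, which frees arachidonic acid, Ptgs1, the constitutive cyclooxygenase, Ptges, a prostaglandin E synthase, Tbxas1 and the prostaglandin E receptor Ptger3. Ptgs1 averaged 70.7 ± 13.2 CPM in WT MPP and 152 ± 9.97 CPM in WT LT-HSC, and Tbxas1 82.5 ± 10.4 CPM in WT MPP and 261 ± 12.6 CPM in WT LT-HSC. Ptges averaged 1.17 ± 0.739 CPM in WT MPP and 9.48 ± 3.02 CPM in WT LT-HSC, and Ptger3 36.8 ± 4.51 CPM in WT MPP and 68.7 ± 6.81 CPM in WT LT-HSC (SD, n = 5 each). Pla2g4a fell by 0.55 on the log2 scale in WT.

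The prostaglandin genes that rose in MPP of both genotypes were Hpgds, a prostaglandin D synthase, Ptgr1, a prostaglandin reductase, and the receptor Ptger2. Ptger2 passed the filter on low counts only through its MPP libraries, so it had to differ in order to be tested. Nothing is read from its call, which the counts of genes that rose include. Ptgr1 averaged 32.8 ± 9.85 CPM in WT MPP and 13.8 ± 2.37 CPM in WT LT-HSC, and Ptger2 10.6 ± 4.82 CPM in WT MPP and 0.578 ± 0.546 CPM in WT LT-HSC (SD, n = 5 each). Hpgds rose by 1.10 ± 0.31 in WT (edgeR, adjusted p = 0.0144) and 0.90 ± 0.31 in AhR-KO (edgeR, adjusted p = 0.0405), where its call was lost when any 1 of 12 libraries was left out, at 0.51 without AhR-KO MPP 5 and at most 0.90 without the others. The prostacyclin receptor Ptgir was called in WT (1.97 ± 0.63, edgeR, adjusted p = 0.0287), a call lost without any 1 of WT LT-HSC 4 and 8 or WT MPP 1, 2 and 4, at 1.83 to 2.02. Ptgds (1.31 ± 0.39, adjusted p = 0.0181) and the receptor Ptger4 (-0.60 ± 0.19, adjusted p = 0.0296) were called in AhR-KO by edgeR. Ptgds lost its call without any 1 of AhR-KO LT-HSC 1 and 2 and AhR-KO MPP 2, at 0.93 to 1.14, and Ptger4 without any 1 of AhR-KO LT-HSC 3 and AhR-KO MPP 2 and 3, at -0.59 to -0.54. In WT, Ptger4 was -0.51 ± 0.19 (edgeR, adjusted p = 0.0668), where DESeq2 and limma voom called it. Ptgir was 1.30 ± 0.61 in AhR-KO (edgeR, adjusted p = 0.139), where limma voom called it. Ptgds was 0.21 ± 0.38 in WT (edgeR, adjusted p = 0.762), where neither of these tools called it. The difference between genotypes in the population effect was called for 0 of 20 genes by edgeR, DESeq2 or limma voom. At an unadjusted p under 0.05 (edgeR) there were 0, beside 6.46% of all genes. In the other lists the same difference had such a p for 3 of 17 detoxification genes and 1 of 5 neighbours. It did for 0 of 8 other aldo-keto reductases and 0 of 16 steroid and carbonyl oxidoreductases. In these lists too, 0 were called by edgeR, DESeq2 or limma voom. The list's median was -0.06 in WT and -0.18 in AhR-KO.

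Of 22 detoxification enzymes and regulators linked to NRF2 or AHR, 16 were tested between AhR-KO and WT in each population. By edgeR 0 were called, beside 0.00622% of all genes in LT-HSC and 0.0311% in MPP. An unadjusted p under 0.05 (edgeR) was held by 2 in each, beside 8.85% and 6.62% of all genes. DESeq2 called 1 (Gclm) and limma voom 2 (Gclm and Gstp1) in LT-HSC, and both called 0 in MPP. The smallest p belonged to Gclm, a subunit of the enzyme that starts glutathione synthesis, in LT-HSC, with 198 ± 20.7 CPM in AhR-KO and 155 ± 10.3 CPM in WT (SD, n = 5 each; edgeR, adjusted p = 0.421). It passed the test with DESeq2 (adjusted p = 0.0442), with limma voom (adjusted p = 0.031) and without WT LT-HSC 1 (0.39, adjusted p = 0.0435). In MPP it belonged to Gsta4, a glutathione transferase (0.70 ± 0.19, SE, edgeR, adjusted p = 0.554). The list's median was -0.05 in LT-HSC and -0.07 in MPP. Between populations edgeR called 2 of 17 higher in WT MPP and 7 lower, beside 22.3% of all genes. In AhR-KO it called 0 higher and 7 lower, beside 23.2% of all genes. In AhR-KO 10 of 17 had an unadjusted p under 0.05 (edgeR), beside 34.2% of all genes. In AhR-KO DESeq2 called 9, adding Tiparp (0.40 ± 0.15 by edgeR) and Ugt1a6a (1.97 ± 0.71), and limma voom called 12, adding also Hmox1 (0.78 ± 0.41), Gclc (0.26 ± 0.11) and Nfe2l2 (-0.27 ± 0.16). Ugt1a6a passed the filter on low counts only through its MPP libraries, so nothing is read from its call. The 7 that edgeR called lower were Aldh1a1, Nqo1, Srxn1, Gsta4, Ephx1, Gclm and Keap1 in each genotype. Keap1 lost its call in both with no filter on low counts (adjusted p = 0.0504 in WT and 0.0597 in AhR-KO). Aldh1a1, a retinaldehyde dehydrogenase, averaged 9.49 ± 3.95 CPM in WT MPP and 61.3 ± 4.77 CPM in WT LT-HSC, and Nqo1, a quinone reductase, 9.58 ± 1.60 CPM in WT MPP and 19.6 ± 3.31 CPM in WT LT-HSC. Srxn1, which repairs peroxiredoxins, averaged 14.2 ± 2.28 CPM in WT MPP and 35.6 ± 6.30 CPM in WT LT-HSC (SD, n = 5 each). The log2 falls of Gsta4, Ephx1, the epoxide hydrolase, Gclm and Keap1, the inhibitor of NRF2, in WT were -1.21, -1.36, -0.33 and -0.34. Hmox1, heme oxygenase, and Gsr, glutathione reductase, rose in WT MPP (1.28 ± 0.42, adjusted p = 0.0337, and 0.61 ± 0.18, adjusted p = 0.0175, by edgeR), but Hmox1 lost its call without any 1 of WT LT-HSC 5 and 8 or WT MPP 1, 3 and 4, at 1.18 to 1.27, and Gsr without WT LT-HSC 4 (0.54, adjusted p = 0.0582). The list's median was -0.27 in WT and -0.03 in AhR-KO.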

How the data were processed

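The values are raw counts of reads per gene symbol, as the authors deposited them in 2 tables, 1 per population, which were joined. Per the submitters' processing notes, the build was GRCm38.p5 and the tools were featureCounts in Subread 1.5.0p3, STAR 2.5.2b, Trimmomatic 0.36 and DESeq2 1.12.4; no source used here gives the settings for strand or for reads that match several genes. Part of the labels' protocol speaks of DC samples, which are not the cells of this series. Comparisons used edgeR 4.0.16 in R 4.3.3 (filterByExpr, TMM, robust quasi-likelihood F test, two-sided, Benjamini-Hochberg over all genes tested, called under 0.05), checked on simulated data. A fit per population (10 libraries) gave AhR-KO against WT, and 1 fit of all 20 libraries gave MPP against LT-HSC and the difference of effects. The biological coefficient of variation was 32.5%, 29.2% and 33.8% in these 3 fits. SE is the log2 fold change over the square root of F, and an interval is 1.96 SE wide on each side. Totals of 13712668 to 21622653 counts leave values under 1 CPM imprecise. Genes, lists and tests were chosen with earlier results of these data known. Named genes were the members, the list genes called (or the one with the smallest p), and the 5 most like Akr1c12 and Akr1c13. Alternatives were other size factors, filters, DESeq2 1.42.0, limma voom (3.58.1), other sets of libraries, a replicate block and summed Akr1c12 and Akr1c13 counts.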

Additional observations from a re-analysis of the deposited data

Results flagged for a closer look

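In 22 groups of 5 libraries, a library was called far from the others where its gap to the nearest, divided by the range of the group, was above Dixon's 95% critical value of 0.71; chance gives this in about 1 of 20 groups. It was met 4 times. Akr1c13 in WT LT-HSC 1 was 124 CPM, against 68.1 to 82.8 CPM in the other WT LT-HSC libraries. Akr1e1 in the same library was 137 CPM, against 59.1 to 70.1 CPM. Akr1c12 in WT MPP 5 was 17.7 CPM, against 12.9 to 14.2 CPM in the other WT MPP libraries. Akr1c14 in WT MPP 3 was 0.228 CPM, from 4 counts, against 0 in the other 4 WT MPP libraries.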

How the results depend on the processing

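Of 200 alternatives to the principal results, 190 kept the direction and the side of the threshold, or moved by less than the spread. The 200 include 26 in AhR-KO and 25 in WT on Akr1c19 between populations, from which nothing is read. They also include 28 and 27 on the number of members called, which is that same call. Most of the rest are those on AhR-KO over WT given next. That comparison chose the family, so they describe its values and are no support for them. Apart from these, the 200 hold only 10 in each genotype on the Akr1c13 share between populations, of which 10 and 10 stayed above the threshold. The tally of 190 is therefore no measure of support. For AhR-KO over WT, Akr1c13 moved by less than the spread in 19 of 19 alternatives in LT-HSC and 18 of 18 in MPP. Akr1c12 did so in 18 of 19 and 17 of 18. With Akr1c12 and Akr1c13 counts summed, the Akr1c12 value of AhR-KO over WT became -1.81 in LT-HSC and -1.71 in MPP. Leaving out 1 library each, Akr1c13 ranged from -2.35 to -1.79 in LT-HSC and from -2.12 to -1.62 in MPP, and Akr1c12 from -1.27 to -1.01 and from -1.38 to -1.21. The Akr1c13 value of MPP over LT-HSC in AhR-KO ranged from -0.46 to 0.20 and turned to 0.20, 0.02 and 0.05 without AhR-KO LT-HSC 1, AhR-KO LT-HSC 3 and AhR-KO MPP 2. For Akr1c19, MPP over LT-HSC, limma voom gave -3.64 in WT and -4.06 in AhR-KO. With limma voom 0 members were called in place of 1 by edgeR, a call from which nothing is read since the filter favours it. Under the filter of 5 CPM in 5 libraries and in the fits of 10 libraries of 1 genotype 0 were also called. Both left Akr1c19 out. Over the genes most like Akr1c12 after subtracting group means, log2(CPM + 2) found 3 of the 5.

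Numbers did not clearly pair the libraries. Correlations of deviations were -0.249 to 0.00645 for AhR-KO with WT in MPP and -0.143 in LT-HSC. In LT-HSC only 2 numbers are shared, so both pairs must give the same value, which says little about pairing. For MPP with LT-HSC they were -0.00415 to 0.254 in AhR-KO (3 of 4 libraries were closest to their own number) and -0.13 to 0.0768 in WT (1 of 3). With the number as a replicate block, AhR-KO over WT was -2.06 and -2.01 for Akr1c13 and -1.10 and -1.30 for Akr1c12 in LT-HSC and MPP, and MPP over LT-HSC for Akr1c19 was -3.99 in WT and -5.58 in AhR-KO. Of the listed genes named and called between populations, 13 of 27 in WT and 9 of 21 in AhR-KO lost their call with the block, which used only the libraries whose number both groups have, and 0 turned. With no filter 5 and 3 lost it, and in the fits of 1 genotype 5 and 1. The 27 and 21 include Ptger2, from whose call nothing is read.

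Counts over all genes moved more: AhR-KO over WT in LT-HSC had 1 gene called by edgeR, but 147 with DESeq2, 264 with limma voom, 203 without WT LT-HSC 1 and 0 with the block, and in MPP 5, but 50 with DESeq2, 0 with the block and 0 to 4 with 1 library left out. MPP over LT-HSC had 3876 genes in WT and 4041 in AhR-KO, 1483 and 2041 with the block, and 6505 in WT with limma voom. The causes were not tested.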
